A study of Mus musculus with 4 samples.

Results

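The genes described here encode the striated muscle actins (Acta1 and Actc1), the sarcomeric myosin light chains (Myl1, Myl2, Myl3, Myl4 and Mylpf) and the tropomyosins (Tpm1, Tpm2 and Tpm3). They were taken by symbol as members of these protein families, when earlier results of these data were known. They are 10 of the 22298 genes in the count table. Of these, 7 genes (the actins and the light chains) are largely restricted to striated muscle, and the 3 tropomyosin genes are widely expressed, with muscle isoforms made by alternative splicing. BAT of fetuses at E18.5 was analyzed by RNA-seq, with 2 libraries from dams that drank sterilized tap water (control) and 2 libraries from dams that drank water with 20% (w/v) fructose (fructose) during gestation. All 4 libraries carry the labels C57BL/6, BAT and male, and the comparison asks what maternal fructose intake changes in the fetal tissue. The number of fetuses or litters behind a library is not given in the sources used here, so the p-values below measure only the spread between libraries, which may be technical.

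Striated muscle contracts when myosin heads of the thick filament pull on thin filaments built from actin. Each myosin head carries an essential and a regulatory light chain, tropomyosin lies along the actin filament, and troponin moves it to let myosin bind. Brown adipocytes share an embryonic origin with skeletal muscle, and skeletal muscle lies next to the brown fat depots, while actin and tropomyosin of non-muscle kinds form the cytoskeleton of nearly every cell.

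Sequencing gave 19224529 and 18542897 gene counts for the control samples, and 22461298 and 23645147 for the fructose samples. A gene without any count may still be present at up to 0.156, 0.162, 0.134 and 0.127 CPM (counts scaled to a common library total) in these libraries, taken as 3 counts and from counting error alone. The spread inside each group exceeded counting error: chi-square divided by its degrees of freedom was 13.1 in control and 8.45 in fructose, where 1 would mean counting error alone. The counts of Y-linked genes differ from the sex label in part of the libraries. Summed counts of 4 Y-linked genes (Eif2s3y, Ddx3y, Kdm5d, Uty) were 422 and 390 in control but 0 in each fructose library, although all carry the label male. Without both fructose libraries no comparison is left. Results are given with each library left out in turn, but every such fit still sets control libraries with Y-linked counts against fructose libraries without them. Diet and the difference in Y-linked counts therefore cannot be told apart in any fold change here. Such fits also leave 1 library in a group and take its spread from the other group. Their p-values are not comparable with those of all libraries. Transcripts encoded in mitochondrial DNA took 5.89% and 6.49% of control counts and 10.8% and 11.2% of fructose counts. All 12 brown adipocyte markers were detected in every library, as the tissue label says. Ucp1, the uncoupling protein of brown fat, stood at 9705 and 12420 CPM in the control libraries and at 11000 and 9606 CPM in the fructose libraries, with overlap between the groups.

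In fetal BAT of fructose-fed dams, most of these filament genes were higher than in control, and the change was smaller in the tropomyosins than in most of the muscle-restricted genes. Acta1, Actc1, Myl1 and Mylpf were about 2 to 2.7 times as high, Tpm1 and Tpm2 were up by a smaller factor, and Tpm3 did not pass the test. All 10 genes were tested, and 7 of them were called higher in fructose (edgeR, adjusted p under 0.05), where 15.5% of the 12888 tested genes were called higher. The test called 0 of them lower, where 10.7% of the tested genes were, and 0 were lower at an unadjusted p under 0.05 or with DESeq2. Over all 12888 tested genes, DESeq2 called 1370 higher and 1063 lower. Both fructose libraries lay above both control libraries for 8 of the 10 genes, against 33.4% of the tested genes, and below them for 0 of the 10, against 31.6%. The median log2 fold change was 0.98 over the 7 muscle-restricted genes and 0.44 over the 3 tropomyosins, beside 0.0025 over all tested genes. In bulk tissue, more cells of a type and more RNA per cell cannot be told apart.

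The fold changes of all genes ran with transcript properties. Across 12884 tested genes with a known length, which are not independent replicates, the log2 fold change had a Spearman's rho of 0.516 with transcript length and of -0.531 with GC content. After both trends were removed from each library, 437 genes were called higher (3.39% of the tested genes), and all 7 genes called here were among them. Scaling by library size only moved the median of all genes to 0.063 and the calls over all genes from 2001 higher and 1379 lower to 2242 higher and 859 lower, and the same 7 genes were called higher.

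**Figure D1:**
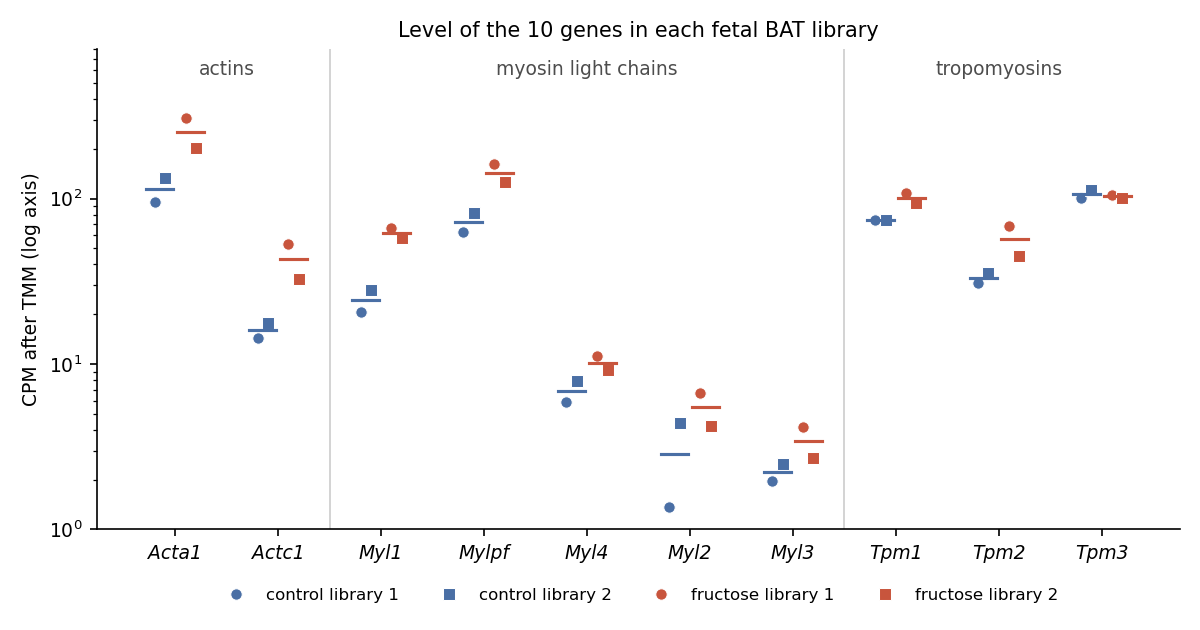
Level of each of the 10 genes in the 4 fetal BAT libraries, as CPM after TMM normalization on a log axis. Circles are library 1 and squares library 2 of a group, blue is control, red is fructose, and the bars are group means; the fructose points lie above both control points for 8 genes, and overlap with them for Myl2 and Tpm3.

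Acta1 (ENSMUSG00000031972, chr8:123891769-123894751, minus strand) encodes the actin of adult skeletal muscle thin filaments. Its level was 94.8 and 133 CPM in the control libraries and 305 and 201 CPM in the fructose libraries. Both fructose libraries lay above both control libraries, and fructose library 1 was the highest. From control to fructose the mean went from 114 ± 27.3 to 253 ± 73.5 CPM (mean ± SD, n = 2 each), a log2 fold change of 1.15 ± 0.18 (SE; edgeR adjusted p = 0.0013). With each library left out in turn, and the lone library of a group assumed to vary like the other group, the log2 fold change ran from 0.82 to 1.42.

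Actc1 (ENSMUSG00000068614, chr2:114047282-114053548, minus strand) encodes the actin that leads in the heart and is also made in fetal skeletal muscle. Actc1 was at 14.4 and 17.7 CPM in control and at 53.3 and 32.7 CPM in fructose. The groups did not overlap, and the libraries had the same order as for Acta1. Actc1 had a log2 fold change of 1.42 ± 0.19 (SE; edgeR adjusted p = 0.00068), and 1.03 to 1.74 with each library left out. The count ratio of Actc1 to Acta1 was 0.151 and 0.133 in control and 0.175 and 0.163 in fructose. Actc1 thus made up slightly more of the striated actin counts in both fructose libraries, and the two-sided exact permutation test gave p = 0.333, the smallest value that 2 libraries against 2 allow.

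Among the light chains, Mylpf (ENSMUSG00000030672, chr7:127208890-127214298, plus strand) encodes the regulatory light chain of fast skeletal muscle. Its level was 63.3 and 81.8 CPM in control and 161 and 125 CPM in fructose. Mylpf was higher in both fructose libraries than in either control library. The mean went from 72.5 ± 13.1 to 143 ± 25.3 CPM (SD, n = 2 each), and the log2 fold change was 0.98 ± 0.13 (SE; edgeR adjusted p = 0.00066), or 0.79 to 1.18 with each library left out.

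Myl1 (ENSMUSG00000061816, chr1:66924295-66945404, minus strand) encodes the essential light chains of fast skeletal muscle. Myl1 counted 20.7 and 28.1 CPM in control, and 66.0 and 57.7 CPM in fructose. The gap between the groups was wider than the spread within either of them. The mean rose from 24.4 ± 5.25 to 61.9 ± 5.86 CPM (SD, n = 2 each), and with a log2 fold change of 1.34 ± 0.13 Myl1 passed the test (SE; edgeR adjusted p = 0.00015). Leaving out each library in turn gave 1.14 to 1.58.

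Myl4 (ENSMUSG00000061086, chr11:104550663-104595753, plus strand) encodes the essential light chain of the atria and of embryonic skeletal muscle. It was found at 5.86 and 7.93 CPM in control and at 11.2 and 9.14 CPM in fructose. The fructose libraries were above the control libraries by a narrow margin. The log2 fold change was 0.56 ± 0.19 (SE; edgeR adjusted p = 0.046), close to the threshold. The call was lost without control library 1, where the log2 fold change was 0.36 (edgeR adjusted p = 0.19), without fructose library 1, where it was 0.41 (edgeR adjusted p = 0.24), and with DESeq2 (adjusted p = 0.11). The count ratio of Myl4 to Myl1, chosen after its values were seen, was 0.283 and 0.282 in control and 0.170 and 0.158 in fructose. Relative to the fast essential light chain, the embryonic one was therefore lower in both fructose libraries.

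Myl2 and Myl3 encode the regulatory and the essential light chain shared by slow skeletal fibres and the heart ventricle, and both were low. Myl2 (ENSMUSG00000013936, chr5:122100951-122113472, plus strand) had 26 and 79 counts in control and 151 and 104 counts in fructose, or 1.37, 4.38, 6.68 and 4.25 CPM. Control library 2 lay above fructose library 2, so the groups overlapped. The log2 value of Myl2 was 0.93 ± 0.40 (SE; edgeR adjusted p = 0.11). Its size depended on single libraries, and its call on the filter. With no filter on low counts it passed the test (edgeR adjusted p = 0.02). Without control library 2 the log2 value was 1.98, without fructose library 2 it was 1.22, and without control library 1 it was 0.31.

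Myl3 (ENSMUSG00000059741, chr9:110741861-110769798, plus strand) had 37 and 45 counts in control and 94 and 66 counts in fructose, or 1.95, 2.49, 4.16 and 2.69 CPM. The fructose libraries were above the control libraries, with fructose library 2 close to control library 2. The log2 value was 0.62 ± 0.30 (SE) and did not pass the test (edgeR adjusted p = 0.15). Exons of Myl3 share 95 bases with Pth1r on the opposite strand, which stood at 43.3, 40.5, 41.3 and 35.2 CPM, and how the counting treated strand is not given in the sources used here, so the level of Myl3 is uncertain. Myl2 shares 60 exon bases with Ccdc63 on the opposite strand, which had at most 2 counts in a library.

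Together, the slow and ventricular light chains (Myl2 and Myl3) came to 0.0396 and 0.0626 of the fast light chains (Myl1 and Mylpf) in control, by summed CPM, and to 0.0477 and 0.0379 in fructose. These ratios overlapped between the groups (two-sided exact permutation test, p = 0.667), and without control library 2 the log2 difference turned from -0.23 to 0.10.

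**Figure D2:**
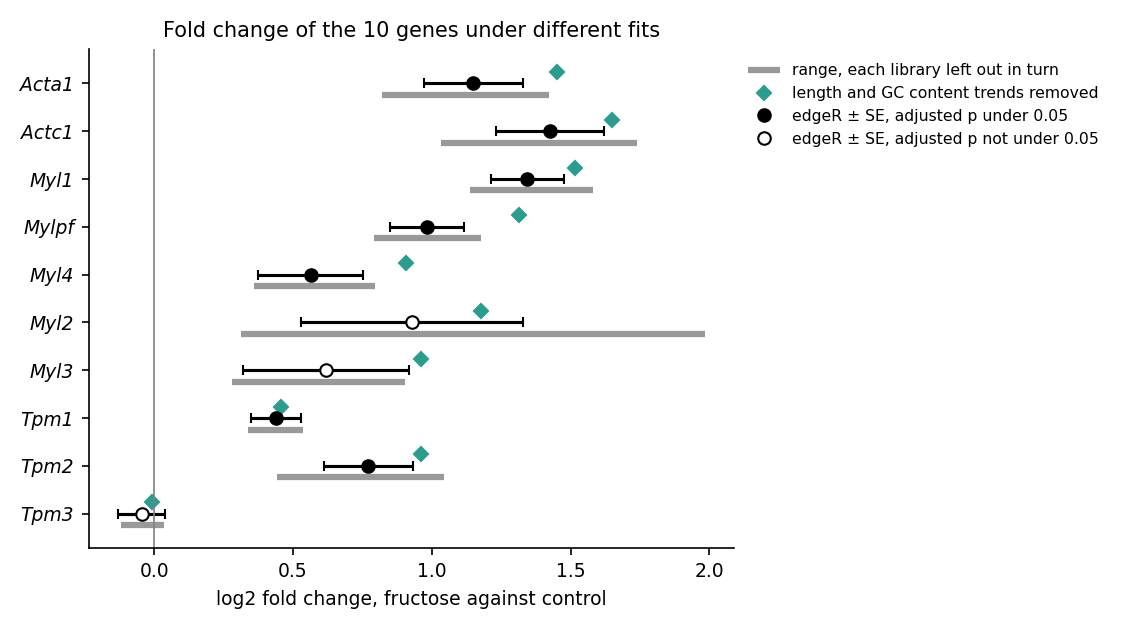
Log2 fold change of fructose against control for each of the 10 genes. Circles with bars are edgeR values ± SE, filled where the adjusted p was under 0.05, grey bars span the values with each library left out in turn, and green diamonds are the values after removal of the trends with length and GC content; only Tpm3 has a grey bar that spans 0.

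The tropomyosins gave a graded picture. Tpm2 (ENSMUSG00000028464, chr4:43514711-43523765, minus strand), whose muscle form predominates in slow and mixed fibres and in smooth muscle, stood at 31.0 and 35.5 CPM in control and at 68.6 and 45.2 CPM in fructose. The fructose libraries were higher, and they differed from each other more than the control libraries did. The log2 fold change was 0.77 ± 0.16 (SE; edgeR adjusted p = 0.0054), and ran from 0.44 to 1.05 with each library left out.

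Tpm1 (ENSMUSG00000032366, chr9:67022590-67049406, minus strand) makes the main tropomyosin of fast fibres and the heart as well as smooth muscle and non-muscle forms. It was at 74.0 and 74.6 CPM in control and at 108 and 93.8 CPM in fructose. The control libraries were nearly equal, and both fructose libraries lay above them. The mean went from 74.3 ± 0.460 to 101 ± 9.83 CPM (SD, n = 2 each), with a log2 fold change of 0.44 ± 0.089 (SE; edgeR adjusted p = 0.005) and 0.34 to 0.54 with each library left out.

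Tpm3 (ENSMUSG00000027940, chr3:90072649-90100902, plus strand) makes the tropomyosin of slow fibres and short forms of the cytoskeleton. Tpm3 was measured at 101 and 112 CPM in control and 106 and 101 CPM in fructose. The groups overlapped, and the log2 value was -0.0445 ± 0.0855 (SE; edgeR adjusted p = 0.74), with its sign depending on the scaling: it was 0.017 with library size only. Counts per gene do not separate muscle from non-muscle isoforms, so the part of either in these values was not tested.

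By level per length, the genes kept most of their order. CPM per kilobase of the longest protein-coding transcript ran in control from Mylpf (94.7 ± 17.1, SD, n = 2) and Acta1 (78.9 ± 18.9) through Tpm3 (47.7 ± 3.62), Tpm1 (25.7 ± 0.159), Myl1 (22.5 ± 4.85), Tpm2 (15.3 ± 1.47), Actc1 (10.9 ± 1.60) and Myl4 (7.31 ± 1.55) to Myl2 (3.23 ± 2.39) and Myl3 (2.37 ± 0.410). The libraries of Mylpf and Acta1, of Tpm1 and Myl1, and of Myl2 and Myl3 overlapped on this scale, so these neighbours have no order beyond their spread. In fructose, CPM per kilobase ran from Mylpf (187 ± 33.0, SD, n = 2) and Acta1 (175 ± 50.8) through Myl1 (57.2 ± 5.42), Tpm3 (46.3 ± 1.66), Tpm1 (34.9 ± 3.40), Actc1 (29.2 ± 9.88), Tpm2 (26.1 ± 7.62) and Myl4 (10.8 ± 1.56) to Myl2 (6.14 ± 1.93) and Myl3 (3.66 ± 1.10). Here Mylpf and Acta1, Tpm1 and Actc1, and Actc1 and Tpm2 overlapped. Myl1 thus stood below Tpm3 in control and above it in fructose. With exon union length in place of transcript length, 2 of the 10 genes kept their rank over all libraries.

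The summed level of the 7 muscle-restricted genes was 202 and 276 CPM in control and 608 and 433 CPM in fructose. Both fructose libraries exceeded both control libraries, and the sum was 2.17 times as high (two-sided exact permutation test, p = 0.333, the smallest value possible). Relative to the summed tropomyosins, these genes were at 0.983 and 1.24 in control and at 2.15 and 1.81 in fructose, a 1.79-fold difference (exact permutation p = 0.333). Within the sum of CPM per kilobase, Mylpf and Acta1 were the largest shares in all libraries. Mylpf held 44.2% and 42.2% of it in control and 38.8% and 41.4% in fructose, and Acta1 held 35.1% and 36.4% in control and 38.9% and 35.2% in fructose. Mylpf was thus a slightly smaller share in both fructose libraries, and the Acta1 shares overlapped between the groups. Of this sum, Myl1 held 10.2% and 10.3% in control and 11.3% and 13.5% in fructose, higher in both fructose libraries. The Actc1 share was also higher in both fructose libraries, the shares of Myl4 and Myl3 were lower in both, and the Myl2 share overlapped.

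Among 11 tested non-muscle and smooth muscle relatives of these genes, 0 were called higher and 1 lower (edgeR; also 0 and 1 with DESeq2, 0 and 3 at an unadjusted p under 0.05), with a median log2 fold change of -0.14, although removal of both trends raised that median to 0.065 and left 1 gene called higher and 0 lower. Actb, the cytoplasmic beta-actin, was at 739 and 649 CPM in control and at 690 and 615 CPM in fructose. Actg1, the cytoplasmic gamma-actin, was at 804 and 662 CPM in control and at 764 and 675 CPM in fructose. The groups overlapped for both. Myl6, the essential light chain of non-muscle and smooth muscle myosin, was at 547 and 503 CPM in control and at 461 and 409 CPM in fructose, the 1 gene called lower (log2 fold change -0.27 ± 0.091, SE; edgeR adjusted p = 0.047). With both trends removed, Myl6 lost this call (log2 value -0.0355, edgeR adjusted p = 0.86). The Myl6 call was also lost with either trend alone removed, with library size only (edgeR adjusted p = 0.096), with at least 10 counts in every library (0.051), without control library 1 (0.075) and without fructose library 2 (0.39). Myl12a, a regulatory light chain of non-muscle myosin, was at 165 and 164 CPM in control and at 147 and 135 CPM in fructose, below control in both libraries, but did not pass the test (edgeR adjusted p = 0.066).

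Other parts of the sarcomere were higher as well. Of 22 thin filament partners, 19 were tested, and 15 were called higher and 0 lower (edgeR; 10 higher and 0 lower with DESeq2), with a median log2 fold change of 1.41. The number called higher was 11 with both trends removed and 9 without fructose library 1. The 4 with the highest level per length were the fast troponins Tnni2, Tnnt3 and Tnnc2, which form the calcium switch of fast fibres, and the slow troponin T, Tnnt1. Tnnt3 was at 13.1 and 18.4 CPM in control and at 48.3 and 35.8 CPM in fructose (log2 fold change 1.42 ± 0.17, SE; edgeR adjusted p = 0.00034). Tnni2 went from 11.7 and 15.8 CPM to 35.5 and 25.8 CPM (edgeR adjusted p = 0.0011). For Tnnc2 the levels were 6.02 and 7.71 CPM in control and 19.4 and 17.1 CPM in fructose (edgeR adjusted p = 0.0003). Tnnt1 had 2.69 and 3.60 CPM in control, and 11.3 and 6.29 CPM in fructose (edgeR adjusted p = 0.0037). None of these troponins overlapped between the groups.

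Of 22 thick filament partners, 17 were tested, and 13 were called higher and 0 lower (edgeR; 9 higher and 0 lower with DESeq2), with a median log2 fold change of 1.55. With both trends removed, 9 were called higher and the median was 0.99. Myh8, the perinatal myosin heavy chain, rose from 18.8 and 24.2 CPM to 76.8 and 77.2 CPM (log2 fold change 1.84 ± 0.11, SE; edgeR adjusted p = 9.9e-06). Mybpc1, a myosin-binding protein, rose from 4.06 and 7.60 CPM to 22.9 and 17.1 CPM (edgeR adjusted p = 0.00064). By contrast, Unc45b, a chaperone for myosin folding in striated muscle, was at 19.6 and 20.3 CPM in control and at 17.4 and 20.6 CPM in fructose. The Unc45b levels overlapped (edgeR adjusted p = 0.73).

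**Figure D3:**
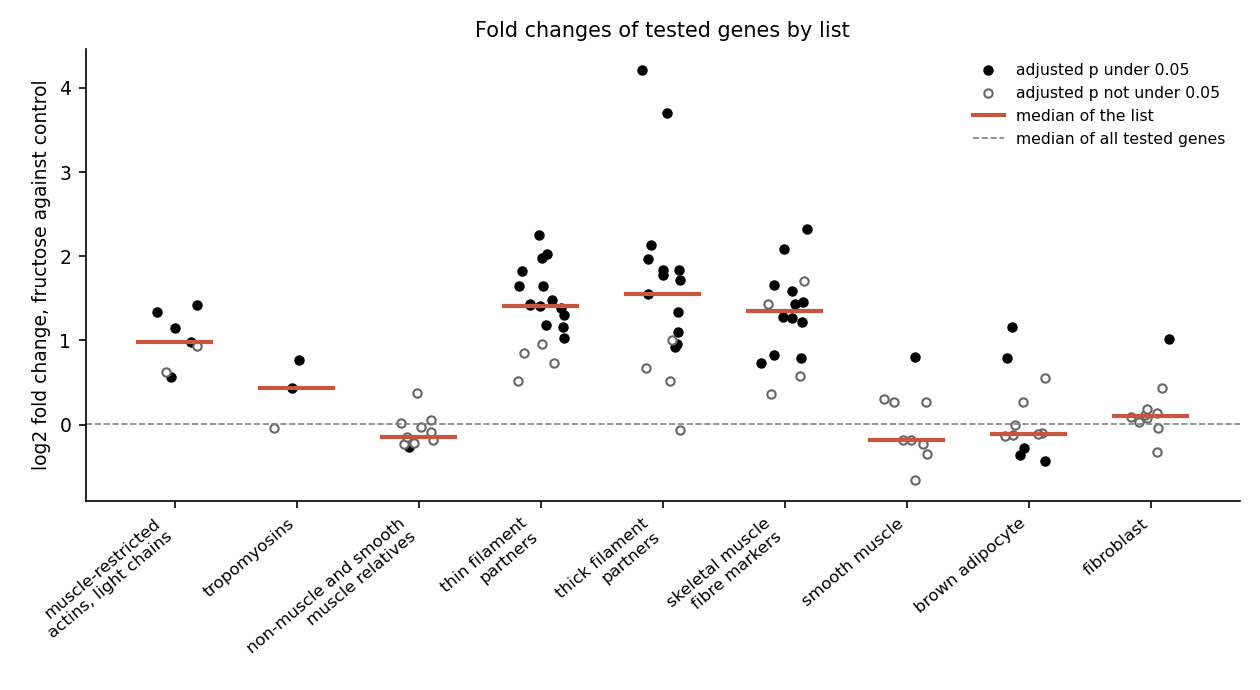
Log2 fold change of fructose against control for each tested gene, by list. Filled points had an edgeR adjusted p under 0.05, red bars are list medians, and the dashed line is the median of all tested genes (0.0025); the filament and skeletal muscle lists lie mostly above the line, and the relatives, smooth muscle, brown adipocyte and fibroblast lists lie around it.

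Skeletal muscle fibre markers outside the filaments moved with these genes. Of 22 markers 16 were tested, 12 were called higher and 0 lower (edgeR; 8 higher and 0 lower with DESeq2), and the median log2 fold change was 1.35. DESeq2 gave no adjusted p for some low-count genes among these markers and the thin filament partners, so its calls could not include them. With both trends removed 9 were called higher, and without fructose library 1 it was 7. Their summed level was 129 and 162 CPM in control and 310 and 281 CPM in fructose. Mb, the oxygen-binding myoglobin and on average the most abundant of them, was at 52.2 and 59.9 CPM in control and at 85.3 and 101 CPM in fructose (edgeR adjusted p = 0.00081). Ckm, the muscle creatine kinase, was at 30.0 and 41.3 CPM in control and at 96.9 and 68.5 CPM in fructose (edgeR adjusted p = 0.00066). Eno3, the muscle enolase, and Atp2a1, the calcium pump of fast fibres, were also higher in fructose (edgeR adjusted p = 0.0014 and 0.00046). At an unadjusted p under 0.05 (edgeR), 18 of the thin filament partners, 14 of the thick filament partners and 14 of these markers were higher and 0 were lower. The share of all tested genes at this threshold was not counted. With a fold change above 1.3 required as well, 2267 of all 12888 tested genes were higher and 797 lower. The 7 muscle-restricted genes summed to 1.57 and 1.70 times the summed markers in control, and to 1.96 and 1.54 times in fructose, and Acta1 stood at 3.16 and 3.23 times Ckm in control and at 3.15 and 2.94 times in fructose. These ratios, chosen after seeing the data, overlapped between the groups for the sum, while Acta1 relative to Ckm was below control in both fructose libraries by a small margin. The part of a changed amount of skeletal muscle in the samples was not tested.

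Most heart muscle markers were nearly absent, and 2 of 12 were tested, with 1 called higher and 0 lower (edgeR). Of 12 markers, Nppb, Pln, Nkx2-5 and Hand2 had 0 counts in all 4 libraries, and Myl7, the atrial regulatory light chain, and Tnni3, the cardiac troponin I, had at most 1 count in any library. Their summed level was 9.18 and 11.3 CPM in control and 14.0 and 12.9 CPM in fructose, and Sln and Tbx5 made up most of it. Sln, a regulator of the calcium pump also made in skeletal muscle, was on average the most abundant, at 2.80 and 4.32 CPM in control and 9.86 and 7.31 CPM in fructose (edgeR adjusted p = 0.0036). Tbx5 was at 6.17 and 6.54 CPM in control and 3.45 and 5.06 CPM in fructose (edgeR adjusted p = 0.079).

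Of 10 smooth muscle markers 9 were tested, with 1 called higher and 0 lower (edgeR; 1 and 0 with DESeq2, 3 and 2 at an unadjusted p under 0.05) and a median log2 fold change of -0.18. The median turned to 0.065 with both trends removed, where 1 was called higher and 0 lower. Without control library 1, 2 of them were called higher and 3 lower, with a median of 0.071. Their summed level was 235 and 251 CPM in control and 258 and 217 CPM in fructose. Acta2, the smooth muscle alpha-actin and on average their most abundant gene, was at 66.8 and 67.3 CPM in control and at 68.1 and 50.4 CPM in fructose (edgeR adjusted p = 0.3). Des, the intermediate filament protein of all muscle, was at 56.0 and 54.6 CPM in control and at 73.2 and 60.4 CPM in fructose (edgeR adjusted p = 0.066). It passed the test with both trends removed (edgeR adjusted p = 0.027), with library size only (0.028) and with the replicate block (0.042). With DESeq2 it did not pass (adjusted p = 0.14). Smtn and Tagln, which bind actin in smooth muscle, did not pass the test (edgeR adjusted p = 0.12 and 0.11). The summed smooth muscle level overlapped between the groups.

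The brown adipocyte markers gave 2 genes higher and 3 lower of 12 (edgeR; 1 higher and 3 lower with DESeq2), a median log2 fold change of -0.11 and summed levels of 24260 and 26140 CPM in control and 24140 and 22280 CPM in fructose. With both trends removed, the median turned to 0.043 and 1 of them was called higher and 0 lower, and without fructose library 2 also 0 were called lower. Among the 4 with the highest level per length, Ucp1, Fabp4 and Cidea did not pass the test. Cox8b, a respiratory chain subunit, was lower (log2 fold change -0.44 ± 0.10, SE, edgeR adjusted p = 0.0099). Its call was lost with both trends removed (edgeR adjusted p = 0.81) and without fructose library 2 (log2 value -0.36). Fabp4 was lower with the GC content trend alone removed (log2 value -0.72, edgeR adjusted p = 0.0017), but did not pass with both removed (log2 value -0.37, edgeR adjusted p = 0.056). The log2 value of Ucp1 ran from -0.27 to 0.087 with each library left out. Per unit of these markers, the 7 muscle-restricted genes came to 0.00834 and 0.0105 in control and 0.0252 and 0.0194 in fructose, a ratio chosen after seeing the data. It was higher in both fructose libraries. The fibroblast markers gave 1 gene higher and 0 lower of 10 (edgeR; 1 and 0 with DESeq2, 2 and 0 at an unadjusted p under 0.05), a median of 0.10 (-0.012 with both trends removed) and summed levels of 5106 and 4383 CPM in control and 5003 and 5080 CPM in fructose. Col1a1, Col1a2 and Dcn did not pass the test, and the most abundant gene, the collagen Col3a1, was at 2272 and 1951 CPM in control and at 2230 and 2284 CPM in fructose.

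These genes resemble each other in sequence to different degrees, which bears on how well their reads can be told apart. The coding sequence of Acta1 matched that of Actc1 at 86.3% of positions, that of Acta2 at 85.4% and that of Actb at 84.8%. Despite this, none of the 50-base stretches of the longest Actc1 transcript, and 2.22% of those of Acta1, recurred exactly in an annotated transcript of another gene. For Tpm3 the share was 62.4%, and Tpm3-rs7, a related sequence, alone accounted for 62.4%. Tpm3-rs7 had 13 and 11 counts in control and 4 and 9 in fructose, against 1911, 2025, 2396 and 2467 for Tpm3, but how reads matching more than 1 gene were counted is not given in the sources used here, so the level of Tpm3 is uncertain. Myl1 shared 23.4% of its 50-base stretches with the pseudogene Mylf-ps. No gene of that symbol was found in the count table, and the level of Myl1 is uncertain as well. Mylpf, Myl3, Myl4, Tpm1 and Tpm2 shared 0% of their stretches, and Myl2 shared 2.14%, with Ccdc63.

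All 10 genes had a promoter window in the RefSeq table (GRCm38.p6, 300 bases around an annotated start), with a second window for Myl2 and Tpm3. Both Myl2 windows lie upstream of the Myl2 gene as located above, so what is said of Myl2 here concerns sequence outside that annotation. The windows of Actc1, Myl1, Myl3 and Mylpf and the second Tpm3 window lie wholly inside the gene as located above. Both strands were searched for TATAAA, for the E-box CANNTG bound by myogenic factors, for the CArG box bound by serum response factor, for the MEF2 box and for CATTCC, the MCAT core. The CArG box was found in Acta1, Actc1 and Myl3, 3 of the 10 genes, and in 1.63% of all 32851 windows. TATAAA was in windows of 4 genes (Acta1, Actc1, Myl1 and Myl2) and in 13.6% of all windows, and CATTCC in 4 genes (Acta1, Myl1, Myl3 and Tpm1) and 14.7%. The E-box was in 9 of the 10 genes, against 72.3% of all windows, and the MEF2 box in 0 of the 10, against 3.19%. A match here is a description of the letters and not a site of binding. The windows of the 4 muscle-restricted genes with the highest level per length are shown because these genes moved together, each read 5′ to 3′ along the gene's strand, with every match to these motifs in capitals. They are Acta1 at chr8:123894726-123895025 (minus strand), Actc1 at chr2:114052826-114053125 (minus strand), Myl1 at chr1:66945007-66945306 (minus strand) and Mylpf at chr7:127211358-127211657 (plus strand).
Acta1: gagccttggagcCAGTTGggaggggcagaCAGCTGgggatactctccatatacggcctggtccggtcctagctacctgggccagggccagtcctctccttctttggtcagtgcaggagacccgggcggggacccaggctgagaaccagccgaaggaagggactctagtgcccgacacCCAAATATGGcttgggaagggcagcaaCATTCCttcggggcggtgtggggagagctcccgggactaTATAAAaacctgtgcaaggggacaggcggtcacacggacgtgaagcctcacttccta
Actc1: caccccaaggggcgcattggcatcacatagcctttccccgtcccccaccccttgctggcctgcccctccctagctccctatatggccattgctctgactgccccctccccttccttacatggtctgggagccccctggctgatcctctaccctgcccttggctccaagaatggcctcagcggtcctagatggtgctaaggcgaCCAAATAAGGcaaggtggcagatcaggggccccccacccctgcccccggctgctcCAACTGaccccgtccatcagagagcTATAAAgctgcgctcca
Myl1: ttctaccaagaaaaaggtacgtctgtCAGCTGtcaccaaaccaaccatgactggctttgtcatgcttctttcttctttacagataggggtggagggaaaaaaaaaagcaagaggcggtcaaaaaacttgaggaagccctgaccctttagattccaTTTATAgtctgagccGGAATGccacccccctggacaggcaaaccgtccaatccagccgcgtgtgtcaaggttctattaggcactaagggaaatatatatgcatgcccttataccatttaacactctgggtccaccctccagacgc
Mylpf: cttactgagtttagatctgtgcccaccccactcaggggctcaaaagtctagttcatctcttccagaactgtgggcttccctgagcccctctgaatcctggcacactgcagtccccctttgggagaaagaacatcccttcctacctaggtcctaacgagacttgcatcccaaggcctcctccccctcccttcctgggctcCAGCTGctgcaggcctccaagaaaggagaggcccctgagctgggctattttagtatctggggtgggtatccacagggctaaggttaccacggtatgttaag
The Acta1 window holds an E-box pair, the CArG box CCAAATATGG, CATTCC and TATAAA, the Actc1 window the CArG box CCAAATAAGG, an E-box and TATAAA, and the Myl1 window an E-box with TATAAA and CATTCC on the other strand. In the Mylpf window the only match is the E-box CAGCTG. No match overlapped another in these windows. All 4 genes were higher in fructose, Acta1 and Actc1 with a CArG box here and Mylpf and Myl1 without. Of the other members, Myl3 holds a CArG box and was not called. Myl4, Tpm1 and Tpm2 lack it and were called, and Myl2 lacks it and was not. A link between a motif and the change was not tested.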

How the data were processed

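RNA-seq counts per gene were used as deposited by the authors for the 4 fetal BAT libraries. The authors trimmed reads with fastp, aligned them to mm10 with Bowtie2 2.0.0.5 and TopHat2 2.0.0, assembled transcripts with StringTie 2.2.0, merged them with Cuffmerge and took the counts from the merged file. The strand setting and treatment of multi-mapping reads are not given in the sources used here. Genes were filtered with filterByExpr, scaled by TMM and tested with the quasi-likelihood F test of edgeR 4.0.16 (R 4.3.3), with Benjamini-Hochberg adjustment over all 12888 tested genes and a threshold of 0.05. Ratios were compared by exact permutation of library labels. Transcript length and GC content came from GENCODE vM21, and promoter windows from RefSeq (GRCm38.p6). The code was tested on simulated data. The genes named are the 10 members, in each list the 4 genes of highest mean CPM per kilobase, and the Y-linked genes; 1 gene under this rule is not reported here. Members and lists were chosen with earlier results of these data known. Alternatives were DESeq2 1.42.0 and its size factors, library size only, other filters, a replicate block, removal of length and GC content trends (lowess), other library sizes, another call rule and leaving out each library.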

Additional observations from a re-analysis of the deposited data

How the results depend on the processing

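All 7 genes kept their call with both the length and GC content trends removed, and Myl4 alone lost its call in any fit with all libraries (DESeq2). Over all genes, 2001 were called higher, but 1124 with the length trend removed, 979 with the GC content trend removed, 437 with both and 501 with both and the replicate block, and 1266 to 2254 with a library left out. Of 1379 genes called lower, the counts became 859 with library size only, 412 with both trends removed, 419 with both and the replicate block, 797 with an unadjusted p under 0.05 and a fold change above 1.3, and 527 to 1685 with a library left out. The log2 value of Tpm3 turned positive with library size only (0.017) and with the length trend removed (0.043), and ran from -0.12 to 0.035 with a library left out. The log2 ratio of slow and ventricular to fast light chains ran from -0.56 to 0.10. Libraries share only a number; with the replicate block, 2117 genes were higher and 1441 lower, Myl2 gained a call (as with no filter on low counts), and the correlation of same-numbered deviations was -0.027. Y-linked counts, mitochondrial counts and skeletal muscle markers differ between the groups along with diet, 2 libraries per group allow no exact p under 0.333, and the cause was not tested.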
